A study of Mus musculus with 12 samples.

Results

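The single-colour Agilent expression array used for these mouse samples carries, beside its probes for known genes, a large set of probes for intergenic noncoding RNAs. These probes have names that give a genomic interval and a strand (F for forward, R for reverse) in place of a gene name. All non-control probes with an identifier beginning A_30_P and such an interval as their name were taken, whatever their signal, which gave 16181 of the 55681 non-control probes of the array. They cover 3540 intervals of the mouse genome build mm9 on 20 chromosomes. Of these intervals, 1251 were probed on the forward strand only, 1222 on the reverse strand only and 1067 on both, which makes 4607 interval strands with a median of 3 and at most 10 probes each. The intervals had a median length of 7314.5 bp, and many overlapped, so that after merging those on the same strand 3362 separate loci remained. Some intervals hold the probe of a protein-coding gene and so do not lie between genes. They have 473 interval probes on that gene's strand and 571 on the opposite one. The probe positions given in the files lay inside the named interval and on the named strand for 16063 probes, and the other 118 had no position. A further 70 probes with the same identifier prefix were named for known noncoding RNAs such as H19 and HOTAIR and were not counted as members.

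Long intergenic noncoding RNAs are transcripts, mostly made by RNA polymerase II and often spliced and polyadenylated, that hold no long reading frame and lie between protein-coding genes. Many are made at low levels and in few cell types, and in the developing brain they are often found beside genes for transcription factors, on either strand. A probe of this kind reports RNA from 1 strand of 1 short stretch, so a signal may come from a noncoding transcript, from an unannotated end of a neighbouring gene, or from any RNA that binds the probe.

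The 12 samples were 4 brain regions of E15 mouse embryos (strain Sv129s6, both sexes mixed; cortex, hippocampus, ventral telencephalon and midbrain, 1 array each) and 8 cultures of neurons derived from male 129/Ola embryonic stem cells, taken on day 16. All cultures received the WNT inhibitor 53AH (2.5 µM) and the BMP inhibitor LDN193189 (0.25 µM) from day 0. These were given until day 11 in WiBi_0-11, which the protocol calls isocortical, and until day 16 in WiBi_0-16. In CHIR_8-16, called hippocampal, the inhibitors were given to day 8, and 3 µM CHIR, a WNT agonist, replaced them to day 16 (the steps of the protocol add up to day 7). In CHIR_11-16 the agonist ran from day 11 to day 16, at a dose the labels do not state. Each culture group had 2 samples, each embryonic tissue 1, and RNA of 3 sets of experiments was pooled into each sample, so the spread between samples does not show that between animals or single cultures.

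The 4 embryo arrays lay on slide 1, replicate 1 of every culture group on slide 2 and replicate 2 on slide 3, so embryo and culture cannot be told apart from slide. Levels are log2 values of the background-subtracted signal with the 75th percentile of each array set to 0, and they are compared only within a probe, since brightness also depends on the probe's sequence. For a list of markers, the summed level is the log2 of the sum of their unlogged levels, so the brightest probes weigh most in it. The midbrain markers fixed for the check of labels (En1, En2, Pou4f1, Lmx1b, Gata3, Tal1) had a summed level of 5.26 in midbrain against -0.82 or less in the other 3 tissues, and the pallial markers one of 7.29 in cortex and 6.36 in hippocampus against 1.81 in midbrain. The pallial sum was as high in ventral telencephalon (6.29) as in hippocampus. The probe of Lmx1b, 1 of these markers, was itself not higher in midbrain. The choroid plexus markers Ttr and Folr1 had a summed level of -3.04 in cortex, 4.90 in hippocampus, 1.38 in ventral telencephalon and 4.31 in midbrain, and the 4 markers of meninges and mesenchyme (Col1a1, Col3a1, Dcn, Lum) one of 0.93, 3.54, -0.08 and 4.59 in the same order. The part of these cells in the values of hippocampus and midbrain was not tested. The blood markers stood at 8.54 to 8.91 in the embryonic tissues and at -3.16 or less in all 8 cultures.

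The sequences below are those of probes on which the later results turn, given 5′ to 3′ as printed on the array in the files. Capitals mark AATAAA, the hexamer that most often directs polyadenylation. It is present in 3.92% of the 16181 interval probes and in 12.6% of the other 39500 probes, which are mostly placed near the end of known transcripts.
Zbtb20 side, A_30_P01024492, chr16:43640454-43640513, forward: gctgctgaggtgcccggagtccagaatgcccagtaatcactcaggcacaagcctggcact
Emx2 side, A_30_P01022747, chr19:59508866-59508925, reverse: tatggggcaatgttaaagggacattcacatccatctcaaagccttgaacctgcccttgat
E330013P04Rik interval, A_30_P01025861, chr19:60238315-60238374, forward: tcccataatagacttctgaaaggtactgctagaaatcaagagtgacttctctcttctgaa
E330013P04Rik interval, A_30_P01023295, chr19:60238435-60238494, forward: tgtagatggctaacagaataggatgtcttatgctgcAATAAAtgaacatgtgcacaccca
Lmx1b side, A_30_P01026417, chr2:33501799-33501858, forward: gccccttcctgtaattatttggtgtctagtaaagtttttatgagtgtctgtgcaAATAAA
Cbln1 side, A_30_P01032532, chr8:90049402-90049461, forward: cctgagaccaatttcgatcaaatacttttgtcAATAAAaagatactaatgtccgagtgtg
Gm6145 interval, A_30_P01031105, chr14:106020416-106020475, reverse: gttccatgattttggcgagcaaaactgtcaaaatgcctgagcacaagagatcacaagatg
Tex15 side, A_30_P01031396, chr8:34675543-34675602, forward: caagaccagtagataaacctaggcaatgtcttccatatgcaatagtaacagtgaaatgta
The first 6 stand for intervals that differed between embryonic tissues, and the Gm6145, Tex15 and first E330013P04Rik probes are among those called in the cultures. In the E330013P04Rik, Lmx1b and Cbln1 intervals the hexamer was present in a probe at or close to the end of the interval on the probed strand.

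Interval probes gave a signal well above background less often than the other probes on each of the 12 arrays. In the embryonic tissues 53.4% of the interval probes passed this call in cortex, 48.8% in hippocampus, 39.9% in ventral telencephalon and 56.2% in midbrain. The 95% Wilson intervals, which cover counting error only, reach from 52.6% to 54.2% in cortex and from 39.2% to 40.7% in ventral telencephalon. In the cultures the mean was 48.0% ± 3.90 (SD, n = 2) in WiBi_0-11, 51.6% ± 4.88 in CHIR_8-16, 56.7% ± 6.14 in CHIR_11-16 and 53.9% ± 1.64 in WiBi_0-16. In all 4 groups the array on slide 2 (50.8% to 61.0%) had more probes detected than that on slide 3 (45.3% to 52.8%). WiBi_0-11 had the lowest share on each slide, at 50.8% and 45.3%, and both its values lay below those of CHIR_11-16 and WiBi_0-16; with 2 arrays a group these shares were not tested. The other probes passed at 65.4% to 75.3% on the 12 arrays. The ventral telencephalon array stood apart, with the lowest share of both kinds and with the highest 95th percentile of its negative controls, a processed signal of 9.55 against 2.89 to 6.76 on the other 11 arrays.

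**Figure D1:**
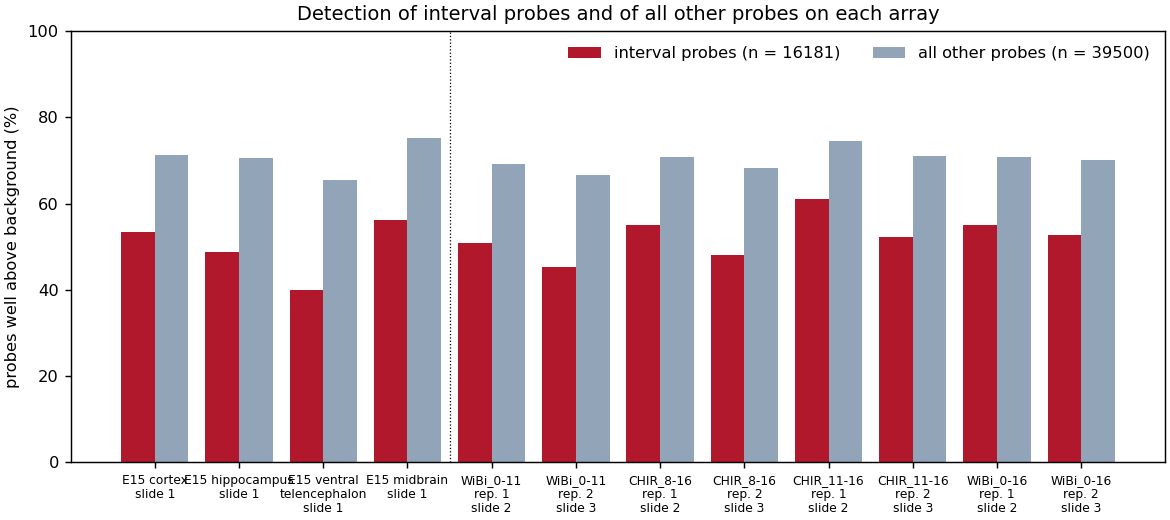
Share of probes well above background on each of the 12 arrays, in percent, for the 16181 interval probes (red bars) and the 39500 other probes (grey bars); a dotted line separates embryo and culture arrays. Interval probes were detected less often on every array, between 39.9% in ventral telencephalon and 61.0% in replicate 1 of CHIR_11-16.

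Over the 12 arrays the interval probes fell into 3 parts. A set of 5405 (33.4%) was well above background on every array, 3907 (24.1%) on none, and 6869 on some, of which 1747 were detected on 1 array only. Among the other probes 59.6% were detected on all 12 arrays and 14.8% on none. The base composition of the probe went with detection. Of the 442 interval probes with 20 or fewer G and C bases among their 60, 18.3% were detected on all 12 arrays and 38.7% on none. Of the 758 with 34 or more, 68.3% were detected on all and 5.28% on none. The same range was 53.6% to 77.9% on all arrays among the other probes, so the shares moved with composition in both kinds and more widely in the interval probes. Whether this reflects the genome around the intervals or the binding of the probes was not tested.

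**Figure D2:**
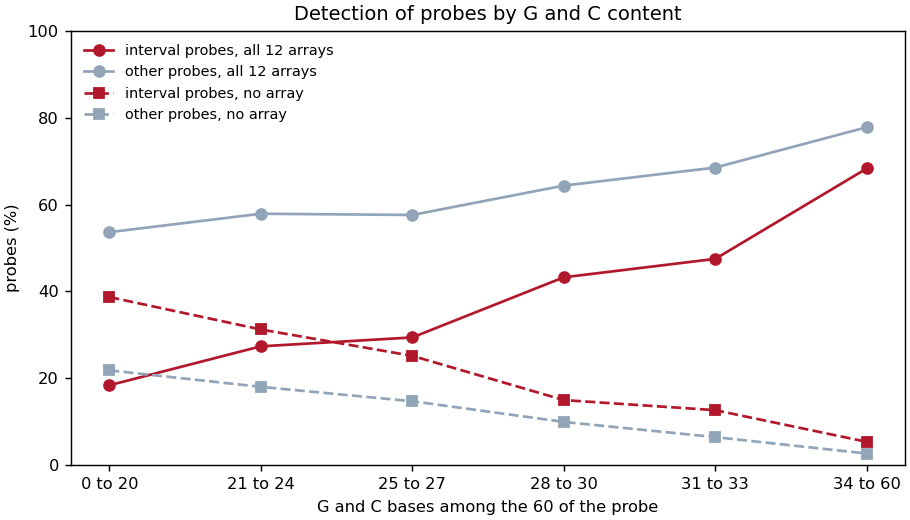
Percent of probes detected on all 12 arrays (solid lines) or on none (dashed lines) by the number of G and C bases among the 60 of the probe, for interval probes (red) and other probes (grey). Interval probes detected on all arrays run from 18.3% to 68.3% from left to right, and those detected on none from 38.7% to 5.28%.

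Probes on the same interval strand can be set against each other as separate readings of 1 stretch. Among probes detected on all 12 arrays, 4079 shared their interval strand with another, on 1355 interval strands. Their difference between hippocampus and cortex lay a median of 0.10 log2 from the median of their interval strand, while the SD of that difference over all these probes was 0.52. For CHIR_8-16 minus WiBi_0-11 the same values were 0.08 and 0.42. A median deviation and an SD are unlike measures. Each probe also counts in the median of its own interval strand, which draws its deviation down. The gap between these values therefore overstates how closely the probes of an interval strand went together, by an amount that was not tested. Probes detected on only some arrays were less even, at a median of 0.32 log2 for hippocampus against cortex. A difference shown by 1 faint probe alone therefore weighs less than one shown by all probes of an interval, and the intervals below are given with the count of probes that shared a difference.

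At the 1067 intervals probed on both strands, at least 1 probe of each strand was detected at 54.8% (ventral telencephalon) to 78.6% (CHIR_11-16 replicate 1) of the intervals, a median of 73.1% over the arrays. When a strand had to be detected by the majority of its probes, a rule chosen after seeing the data, both strands passed at a median of 23.8% of the intervals. Signal on a single strand only was then present at 41.0% to 46.8% of intervals on each array. Only 14 of the 1067 had every probe of one strand detected on all 12 arrays and no probe of the other strand on any, 7 forward and 7 reverse, and 3 of these had 2 or more probes on each strand. One was chr15:68161768-68193518, 246 kb from the nearest probe of a protein-coding gene (Zfat). Its 5 reverse probes were detected on all arrays and its 5 forward probes on none. A reverse and a forward probe of this interval are shown as an example, with no hexamer to mark in either.
A_30_P01022552, chr15:68175661-68175720, reverse, detected: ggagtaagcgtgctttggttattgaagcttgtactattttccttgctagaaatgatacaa
A_30_P01020632, chr15:68188691-68188750, forward, not detected: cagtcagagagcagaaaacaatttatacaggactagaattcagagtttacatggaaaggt
The 2 probes hold 22 G and C bases each.

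The nearest protein-coding gene was taken as the nearest probe with a curated mRNA accession, so a distance is to that probe, which usually lies at the gene's 3′ end, and not to the gene's whole body. Of 26695 such probes 26328 were named by matching their accession to RefSeq genes, and the others kept the name in the files. Interval probes on the strand of a gene whose probe lay inside the interval were detected on all 12 arrays in 55.2% of 473 cases, and those on the opposite strand in 28.5% of 571. At 0 to 5 kb the shares were 49.6% and 27.6%. At 5 to 50 kb they were 32.4% and 33.3%, with no excess on the gene's strand. Of 121 interval probes over 500 kb away on the same strand 25.6% were detected on all arrays, and of 110 on the opposite strand 10.9%.

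The levels of interval probes over the 12 arrays went with those of the gene most closely where both lay on the same strand and overlapped. The median Pearson r was 0.52 over 290 pairs on 105 interval strands on the same strand, and 0.22 over 240 pairs on the opposite strand. At 0 to 5 kb the medians were 0.29 and 0.15, at 5 to 50 kb 0.13 and 0.06, and at 50 to 500 kb 0.17 and 0.10. Over all 7091 pairs within 500 kb the median was 0.15, with quartiles of -0.21 and 0.47. Within the 8 cultures, after each slide's mean was removed from each probe, the median was 0.43 for overlapping pairs on the same strand and 0.08 over all pairs. These correlations are descriptions: the pairs share arrays and slides, and several probes of an interval share their gene.

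**Figure D3:**
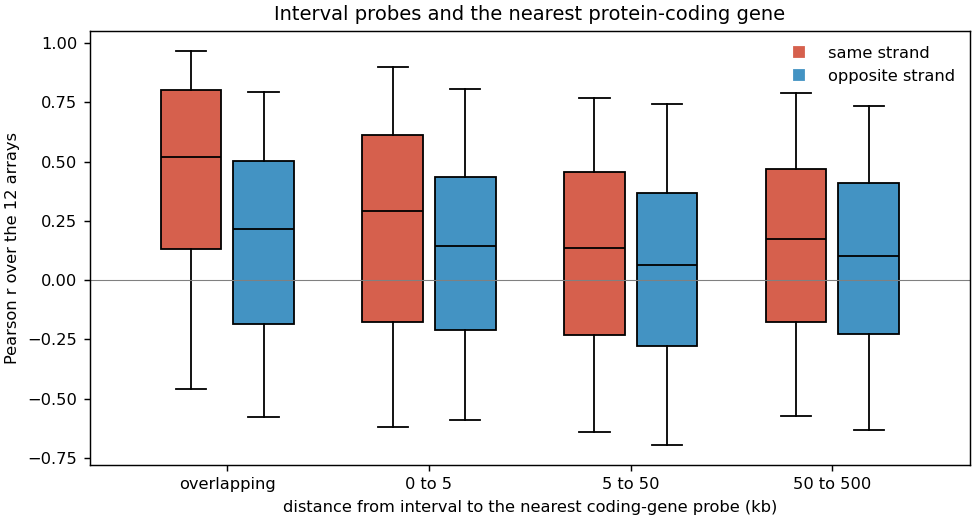
Pearson r over the 12 arrays between each interval probe and the nearest probe of a protein-coding gene, by distance in kb and strand (boxes, quartiles and median; whiskers, the 5th and 95th percentiles). On the same strand the median is 0.52 for overlapping pairs, 0.13 at 5 to 50 kb and 0.17 at 50 to 500 kb.

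A set of 170 interval probes matched a stretch of a RefSeq promoter window (250 bases before to 50 after a gene's start, build GRCm38.p6, 32851 windows) exactly over all 60 bases. Of these, 80 read the strand of the gene, 86 the opposite strand and 4 matched windows on both. Of the 170, 67 (39.4%) were detected on all 12 arrays, beside 33.4% of all interval probes.

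In the embryonic tissues 335 interval probes were at least 2-fold higher in cortex than in each of the other 3 tissues, 270 in hippocampus, 269 in ventral telencephalon and 460 in midbrain. These are 2.08%, 1.68%, 1.67% and 2.86% of the 16075 interval probes with a usable spot on all 4 arrays. Over all probes of the array the same rule took 1.37%, 1.64%, 1.24% and 3.62%. From the deposited series table the counts were 159, 167, 199 and 175, so that midbrain did not have the most. With 1 array per tissue there is no replicate check and no test. Most of the interval probes past this fold stood alone: of the 326 in cortex with another probe on the same interval strand, 271 were the only one past it, and the same held for 199 of 263 in hippocampus, 234 of 263 in ventral telencephalon and 339 of 444 in midbrain. Interval strands with 2 or more probes, all of them past the fold, numbered 1 in cortex, 9 in hippocampus, 0 in ventral telencephalon and 8 in midbrain, of 3917. This count was added after the data were seen, and the intervals named from it were chosen by it.

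The hippocampal set was led by 3 overlapping forward intervals beside Zbtb20, on its strand, of which the larger lies 4 kb from the gene's probe. Zbtb20 encodes a zinc finger repressor needed for the identity of hippocampal pyramidal neurons. All 10 probes of chr16:43623581-43642715 were 4.35-fold to 5.55-fold higher in hippocampus than in the next tissue, as were the 3 and 3 probes of the other intervals (4.49-fold to 5.40-fold). The probe A_30_P01024492 read 3.17 in cortex, 5.39 in hippocampus, 3.27 in ventral telencephalon and 2.44 in midbrain, and 2.16 to 3.02 in the 8 cultures. Zbtb20 itself read 2.44, 4.88, 2.77 and 1.83 in the 4 tissues and 1.26 to 2.12 in the cultures. The intervals and the gene thus had hippocampus as the highest tissue and no culture at its level, including both CHIR_8-16 cultures.

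Beside Emx2, a homeobox gene that patterns the caudal and medial cortex, the reverse strand of chr19:59498190-59531390 lies 8 kb from the gene's probe and opposite to it. The interval holds the annotated antisense transcript Emx2os. Its 5 probes were 3.90-fold to 5.57-fold higher in hippocampus than in the next tissue. A_30_P01022747 read -2.66 in cortex, -0.29 in hippocampus, -3.75 in ventral telencephalon and -2.25 in midbrain. In the cultures it read -1.23 and -2.10 in WiBi_0-11, -0.14 and -1.79 in CHIR_8-16, -1.11 and -2.46 in CHIR_11-16 and -0.24 and -1.62 in WiBi_0-16, each time higher on slide 2, and the groups overlapped. Emx2 read 0.05, 1.99, -0.73 and -0.39 in the 4 tissues.

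The forward strand of chr19:60220577-60238494 holds the noncoding gene E330013P04Rik, 36 kb from the probe of Fam204a. Its 3 probes were 11.0-fold to 14.9-fold higher in hippocampus than in cortex, the next tissue. A_30_P01025861 read -3.02 in cortex, 0.87 in hippocampus, -5.97 in ventral telencephalon and -5.98 in midbrain, the last 2 not well above background. The same probe is among those called in the cultures. Among the other intervals of this set were chr6:40699474-40719122 on the forward strand (2 probes, overlapping Mgam), chr8:48480224-48480698 on the reverse strand (3 probes, 95 kb from Trappc11, 4.22-fold to 6.96-fold over the next tissue) and chr1:175705225-175717250 on the reverse strand, beside the interferon-inducible gene Ifi204. In the last of these, beside Ifi204, 5 probes were at least 2.89-fold higher in hippocampus.

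In midbrain the largest shared difference lay beside Lmx1b, which encodes a LIM homeodomain factor of midbrain dopaminergic and hindbrain serotonergic neurons. The 3 forward probes of chr2:33500594-33501874, opposite to Lmx1b and 6 kb from its probe, were higher there. A_30_P01026417 read -1.55 in cortex, -1.91 in hippocampus, -1.60 in ventral telencephalon and 2.06 in midbrain, a 12.2-fold difference to the next tissue. The other 2 were not well above background in any tissue but midbrain and were at least 20.95-fold and at least 40.4-fold higher there. Here and below, "at least" sets the mean of the brighter side against the higher of the probe's own signal and the faintest signal well above background on each dimmer array. The 3 probes of the overlapping chr2:33496712-33501183 were at least 4.20-fold higher in midbrain. The probe of Lmx1b, on the other strand, read -2.08, -2.41, -2.85 and -2.26 in the 4 tissues and was not highest in midbrain.

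A pair of forward intervals near Cbln1, which encodes a secreted synaptic organiser, were also highest in midbrain in all of their probes. In chr8:90048940-90049461, opposite to Cbln1 and 56 kb from its probe, the 3 probes were 3.45-fold to 3.83-fold above the next tissue. A_30_P01032532 read -1.69 in cortex, -2.21 in hippocampus, -0.46 in ventral telencephalon and 1.46 in midbrain. In the cultures it read 1.94 in replicate 2 of CHIR_8-16 and between -0.40 and 0.07 in the other 7. That single culture also had the highest summed level of the midbrain markers, 2.41 against 0.28 to 1.31 in the other 7. Of these markers Pou4f1 (1.93), Lmx1b (-1.91) and Gata3 (-2.09) read highest there, while En2 and Tal1 were higher in other cultures. The part of midbrain-like cells in the value of A_30_P01032532 was not tested. Fewer cells of a type and less RNA per cell cannot be told apart in these bulk samples.

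**Figure D4:**
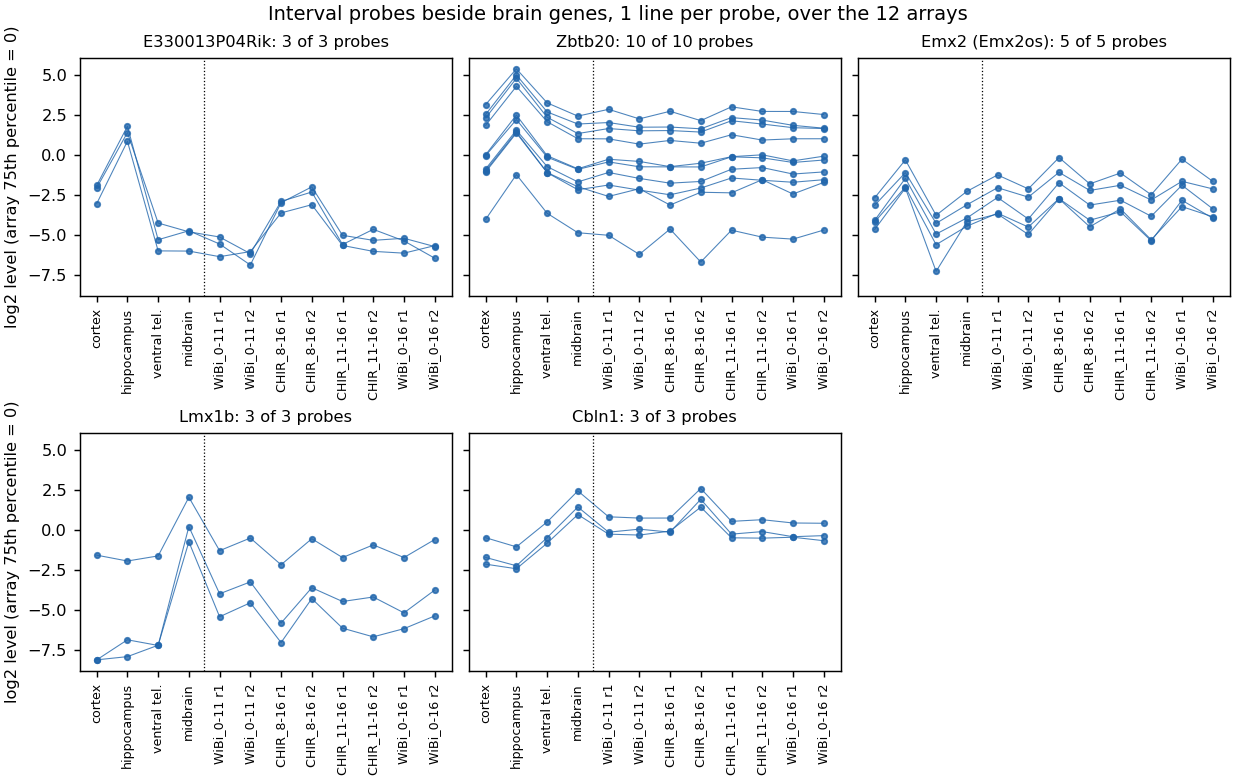
Log2 level (75th percentile of each array = 0) of all probes of 5 interval strands on the 12 arrays, 1 line per probe, with the embryonic tissues left of the dotted line; each panel is titled by the neighbouring or enclosed gene. Probes of an interval run in parallel, with peaks in hippocampus (E330013P04Rik, Zbtb20, Emx2) or midbrain (Lmx1b, Cbln1).

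In cortex chr3:137742666-137744470 (forward, 9 kb from Mttp) was the 1 interval with both probes past the fold, 2.14-fold over ventral telencephalon in each. The 5 probes with the largest measured differences in each tissue numbered 20 in all. Of these, 18 were detected in that 1 tissue only among the 4, so their differences are lower bounds with no order, from at least 3.99-fold to at least 48.5-fold. Of the 20, 16 had no other probe of their interval strand past 2-fold. The other 2 were A_30_P01028709 in chr17:9898206-9919226, which read 6.17 in ventral telencephalon and -4.42 or less on the other 11 arrays, and A_30_P01020590 in chr6:133054025-133069850, at 7.62 in midbrain against -2.14 or less elsewhere, although 9 other probes lie on its strand. None of these lone readings has a replicate.

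Of 47 anchor genes of brain patterning and WNT signalling, 16 had interval probes within 100 kb, among them Pou3f3, Sox2, Six3, Otx2, Emx2, Meis1, Nr2f1, Nr2f2, Olig1, Olig2, Wnt8b, Egfr, Zbtb20 and Hoxb5. Beside Pou3f3, a POU-domain factor of upper-layer neurons, the reverse strand of chr1:42689799-42749799 holds the known noncoding gene Pantr1 and lies opposite to Pou3f3. A_30_P01030648 read 6.15 in cortex, 5.11 in hippocampus, 5.43 in ventral telencephalon and 4.37 in midbrain, and 3.04 to 3.80 in all 8 cultures, which were thus below each embryonic tissue. Pou3f3 read 1.52, 0.85, 0.86 and -0.32 in the tissues and -0.08 to 0.32 in the cultures.

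Beside Otx2, the forebrain and midbrain homeobox gene, the brightest probes did not follow the gene. The reverse probe A_30_P01028303 in chr14:49314574-49358174 read 5.67, 5.39, 5.25 and 5.13 in the 4 tissues, while Otx2 read -3.58, 1.31, 0.91 and 4.25. Near Nr2f2, which encodes an orphan nuclear receptor of caudal and ventral telencephalon, the forward probe A_30_P01032993 in chr7:77555482-77634858 read -2.53 to -1.41 in the embryonic tissues and -0.10 to 0.77 in all 8 cultures. The groups of embryo and culture arrays did not overlap there, and slide was not separable from them.

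Detection split cleanly between embryo and culture for few interval probes. A set of 27 was detected in all 4 embryonic tissues and no culture, on 22 interval strands, 4 of them with 2 or more such probes. This is 0.167% of the interval probes, beside 0.539% of the other probes and 0.431% of all. Another 56 were detected in all 8 cultures and no embryonic tissue, on 48 interval strands, 6 with 2 or more, which is 0.346% beside 0.149% of the other probes and 0.207% of all. Among the first was the reverse strand of chr8:111766396-111772271, 281 kb from Zfhx3, where 2 of 4 probes read -3.46 to 0.15 in the embryo and -5.37 or less in the cultures. Among the second was the forward strand of chr14:75770673-75771326, 27 kb from Zc3h13, where both probes read -4.33 to -2.58 in the cultures and -5.61 or less in the embryo.

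In the cultures 8543 interval probes (52.8%) passed the detection call on both replicates of 1 or more groups and were tested, together with 27884 other probes (70.6% of theirs). A probe detected in few groups could thus enter only through the groups where it was high. Its p-value is then not independent of the filter. The slides differed more in the interval probes than elsewhere. With both slides holding all 4 groups, 4495 of the 8543 (52.6%) differed between slide 2 and slide 3 at an adjusted p under 0.05, 3161 higher and 1334 lower on slide 2, against 27.7% of the other probes and 33.6% of all. The median residual SD of an interval probe fell from 0.55 without to 0.24 with slide as a block, and that of the other probes from 0.28 to 0.18. The slides hold replicates 1 and 2, so a difference between the slides and one between the 2 replicate sets cannot be told apart. Markers of pluripotent cells moved with them in 3 groups. Zfp42 read -7.87, -7.21 and -7.85 on slide 2 and -0.96, -2.27 and -1.22 on slide 3 in WiBi_0-11, CHIR_8-16 and CHIR_11-16, and -5.09 and -6.08 in WiBi_0-16. Pou5f1 read -7.34 to -6.82 in the same 3 groups on slide 2 and -3.75 to -2.53 on slide 3, while Nanog lay between -1.19 and -0.30 on both slides. Their part in the interval probes' values was not tested. Each culture comparison is given from the fit without the slide term and from that with it.

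Earlier agonist, CHIR_8-16 against WiBi_0-11, asks what replacing the inhibitors by CHIR from day 8 changes. The groups also differ in the last inhibitor day, 8 against 11, which cannot be told apart from the agonist. Without the block 0 of the 8543 interval probes tested passed an adjusted p of 0.05 in limma, and 0.0% of all probes did. Of the 8543, 496 had an unadjusted p under 0.05, a limit that a share of about 0.05 passes by chance alone. With slide as a block 16 interval probes passed, 9 higher and 7 lower in CHIR_8-16, of 111 passing probes in all (0.305% of those tested; 0.104% higher and 0.2% lower). The 16 lay on 12 interval strands. All had the same sign on both slides, which a call with slide as a block itself favours, so it is no separate check. Of 24 other tested probes on these interval strands 21 had the same sign as the called ones, but they read the same samples and are no separate check. The block fit called 6 interval probes without replicate 1 of CHIR_8-16 and 0 without any other array of the 2 groups (WiBi_0-11 replicate 1, WiBi_0-11 replicate 2 or CHIR_8-16 replicate 2). Of the 16, 11 were also called with the block under quantile normalization, 9 under normexp and 9 from the deposited table.

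Markers of several cell types moved with the groups. The summed level of the choroid plexus markers was -2.09 and -2.25 in WiBi_0-11 and -0.16 and -0.63 in CHIR_8-16, that of the 4 oligodendrocyte lineage markers 3.04 and 3.01 against -1.04 and 0.13, that of the meningeal markers 2.88 and 3.04 against 1.42 and 0.16, and that of the 4 hippocampal markers (Prox1, Zbtb20, Lef1, Wnt8b) 2.67 and 2.08 against 4.50 and 4.05. Within the last list Lef1, a WNT-responsive transcription factor, read 1.24 and 0.40 against 4.22 and 3.36, while Zbtb20 read 1.71 and 1.26 against 1.62 and 1.42, Prox1 -2.62 and -2.61 against -2.24 and -2.09, and Wnt8b -0.81 and -1.44 against -0.46 and 1.77. Their part in the interval probes' values was not tested.

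A called rise lay in the E330013P04Rik interval described above for hippocampus. A_30_P01025861 read -6.33 and -6.01 in WiBi_0-11, -3.60 and -3.09 in CHIR_8-16, -5.63 and -6.00 in CHIR_11-16 and -6.11 and -5.64 in WiBi_0-16. Both CHIR_8-16 cultures were above all 6 others, and the probe entered the test only through that group. The difference was 2.83 ± 0.25 log2 (SE with the block; adjusted p = 0.0333 with and 0.151 without the block, and 0.0620 with it under quantile normalization), at least 4.02-fold since the probe was not well above background in WiBi_0-11. The other 2 probes of the interval differed by 3.73 and 3.03 and did not pass (adjusted p = 0.0706 and 0.100 with the block).

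Of the 5 probes on the forward strand of chr8:34646787-34680312, 3 kb from Tex15 and on its strand, 2 were also called. Tex15 is known from meiosis in germ cells. A_30_P01031396 read -5.19 and -5.37 in WiBi_0-11, -2.97 and -3.45 in CHIR_8-16, -5.18 and -5.25 in CHIR_11-16 and -5.30 and -5.45 in WiBi_0-16. The difference was 2.07 ± 0.15 log2 (adjusted p = 0.0269 with and 0.151 without the block), and again only CHIR_8-16 was high. Tex15 itself read -2.95 and -3.02 in WiBi_0-11 and -2.26 and -0.95 in CHIR_8-16.

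A further 4 rises were named. A_30_P01024176 in chr11:6421951-6429173 (reverse, 15 kb from Myo1g) was at least 2.56-fold higher in CHIR_8-16 (adjusted p = 0.0487 with the block). A_30_P01019325 in chr13:98062189-98066613, 39 kb from Enc1 and on its strand, was at least 2.83-fold higher (adjusted p = 0.0378 with the block). A_30_P01027049 in chr13:28760289-28977218, 66 kb from Sox4, a transcription factor of immature neurons, differed by 1.49 ± 0.14 log2 (adjusted p = 0.0412 with the block). A_30_P01021526 in chr1:139713316-139913366, 48 kb from Ptprc, was detected in 1 of 2 CHIR_8-16 arrays and differed by at least 1.32-fold (adjusted p = 0.0379 with the block). None of these 4 passed without the block (adjusted p from 0.208 to 0.448), nor with it under normexp or from the deposited table (adjusted p from 0.0541 to 0.224).

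Of the 7 falls 4 were on 1 interval strand, the reverse strand of chr14:105987405-106063477, which holds Gm6145 and lies 228 kb from Spry2. A_30_P01031105 read -1.47 and -1.81 in WiBi_0-11, -3.52 and -4.04 in CHIR_8-16, -2.38 and -2.74 in CHIR_11-16 and -1.67 and -2.06 in WiBi_0-16. The order CHIR_8-16, CHIR_11-16 and inhibitor cultures held on both slides. The difference was -2.14 ± 0.13 log2 (adjusted p = 0.0227 with and 0.208 without the block), and the 4 called probes lay between -2.42 and -1.97. Of the 10 probes of the interval 7 were tested, all with the same sign. In the embryo the same probe read -4.65 in cortex, -4.02 in hippocampus, -3.73 in ventral telencephalon and -1.54 in midbrain. Spry2 itself read -0.73 and -0.80 in WiBi_0-11, -1.34 and -1.23 in CHIR_8-16, -1.15 and -1.08 in CHIR_11-16 and -0.53 and -0.58 in WiBi_0-16. The gene thus had the same order in the cultures. In the embryo it read -2.25, -2.92, -2.19 and -2.66 in the same order of tissues, with midbrain not highest.

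The other falls were single probes. A_30_P01021209 in chr4:148119487-148121143 (reverse, 74 kb from Gm572) read -3.38 and -2.44 in WiBi_0-11 and -7.13 or less on all 6 other culture arrays, where it was not well above background. It was not well above background in any embryonic tissue either. It was at least 5.53-fold lower in CHIR_8-16 (adjusted p = 0.0192 with the block), at least 8.75-fold lower in CHIR_11-16 (0.0153) and at least 6.17-fold lower in WiBi_0-16 (0.0169). It entered the test only through WiBi_0-11, where it was high and which is the reference of these comparisons. The p-values are therefore not independent of the filter. No other probe of its interval strand was tested. A_30_P01025666 in chr7:117140887-117152562 (forward, 24 kb from Tmem41b) read -3.08 and -3.03 in WiBi_0-11 and -5.30 or less in the other 6, and was at least 4.55-fold lower in CHIR_8-16 (adjusted p = 0.0402 with the block). It was detected on 3 culture arrays and entered the test only through WiBi_0-11, where it was high. This p-value, too, is not independent of the filter. The 1 other tested probe of its interval strand had the opposite sign. A_30_P01028294 in chr6:122341396-122342710 was detected in 1 of 2 WiBi_0-11 arrays and was at least 1.23-fold lower (adjusted p = 0.0307 with the block, 0.168 under normexp and 0.102 from the deposited table).

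**Figure D5:**
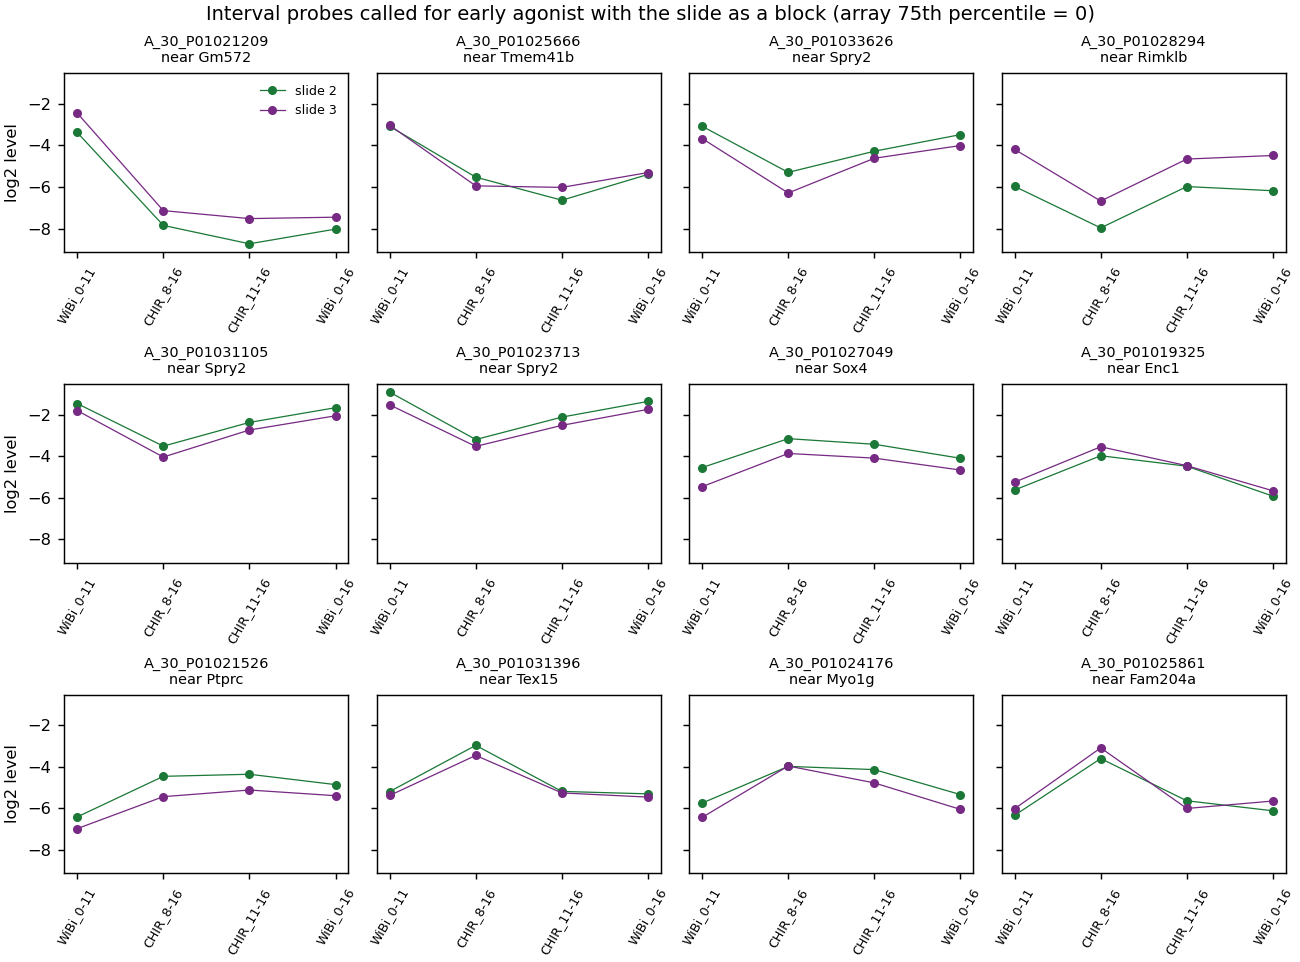
Log2 level (75th percentile of each array = 0) in the 4 culture groups for the 12 named interval probes called for CHIR_8-16 against WiBi_0-11 with slide as a block, with slide 2 in green and slide 3 in purple. Panels are titled by probe and nearest protein-coding gene and run from falls to rises by measured log2 difference, which includes values not well above background. The 2 lines of a panel run nearly parallel, which the call with slide as a block itself favours, and the probe near Gm572 is high in WiBi_0-11 only.

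Later agonist (CHIR_11-16 against WiBi_0-11) and longer inhibition (WiBi_0-16 against WiBi_0-11) each had 0 interval probes called without the block. Of the 8543 tested, 277 and 285 had an unadjusted p under 0.05. With the block each had 1 called, A_30_P01021209 described above. Over all probes 0.0% passed without and 0.00824% with the block in each. Both comparisons share WiBi_0-11 with the first, and this probe is high in that group only. With the block it was not called in either under normexp, from the deposited table or with a trended prior (adjusted p from 0.0729 to 0.418). With agonist timing, CHIR_8-16 against CHIR_11-16, 0 interval probes passed either fit, as did 0.0% of all probes. Of the 8543 tested, 255 had an unadjusted p under 0.05 without the block and 1040 with it. These groups also differ in the last inhibitor day, in the length of agonist exposure and perhaps in dose, which cannot be told apart from timing. The 3 smallest p-values with the block belonged to both Tex15-side probes and the Rimklb-side probe A_30_P01028294. For A_30_P01031396 the difference was 2.01 ± 0.15 log2 (adjusted p = 0.109 with the block). The E330013P04Rik probe was well above background on both CHIR_8-16 arrays and 1 of 2 CHIR_11-16 arrays (adjusted p = 0.125 with the block), and no fold is given for it.

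The mean of both agonist groups was set against the mean of both inhibitor groups, 4 arrays on each side. Inhibitors ended on day 8 or 11 on the agonist side and on day 11 or 16 on the other. The sides thus also differ in inhibitor exposure, which cannot be told apart from the agonist here. Without the block 0 interval probes passed, with 600 of 8543 at an unadjusted p under 0.05, and 1 of all probes did (0.00275%). With slide as a block 138 interval probes passed, 86 higher and 52 lower with agonist, of 892 in all (2.45% of those tested; 1.33% higher and 1.11% lower). The 138 of 8543 are a smaller share than the 892 of 36427. They lay on 93 interval strands at 85 separate loci, and 26 interval strands had 2 or more. Of the 178 other tested probes on the 93 strands 151 had the same sign, but they read the same samples and are no separate check. The differences were small, with a median size of 0.91 log2. The 16 probes called for earlier agonist were among them, but the arrays of that comparison are 4 of the 8 used here, and A_30_P01021209 counts as lower although it was as low in WiBi_0-16 as with agonist. The block fit called 56 without replicate 1 of CHIR_8-16 and 0 without any 1 of the other 7 culture arrays (both of WiBi_0-11, CHIR_11-16 and WiBi_0-16, and CHIR_8-16 replicate 2).

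Marker lists also separated the sides here. The oligodendrocyte lineage sum was -1.04, 0.13, 0.67 and 1.5 with agonist and 3.04, 3.01, 2.16 and 3.40 without. The midbrain sum was 0.97, 2.41, 1.31 and 1.14 against 0.35, 0.81, 0.28 and 0.67, with no overlap in either list. Among the midbrain markers Pou4f1 read 0.19, 1.93, 0.08 and -0.12 with agonist. In WiBi_0-11 it read -0.87 and -1.07, and in WiBi_0-16 -0.99 and -0.66. En2, Lmx1b, Gata3 and Tal1 overlapped between the sides, and En1 was well above background on 1 array only. The part of these lists in the interval probes' values was not tested.

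Some intervals had several called probes. All 10 probes of the forward strand of chr17:26911397-26917047, 2 kb from the probe of Crebrf on the same strand, were lower with agonist, by 1.0 to 1.52 log2. A_30_P01022537 read 1.28 and 0.89 in WiBi_0-11, 2.005 and 1.05 in WiBi_0-16, 0.14 and -0.59 in CHIR_8-16 and -0.01 and -0.38 in CHIR_11-16, so that the sides did not overlap (-1.52 ± 0.14 log2, adjusted p = 0.0277 with and 0.154 without the block). All 5 probes of the reverse strand of chr4:146507925-146532650, 345 kb from Zfp600, were higher with agonist by 1.16 to 1.41 log2. Of 10 on the forward strand of chr14:22267795-22319045, which overlaps Adk, the gene of adenosine kinase, 4 were higher by 0.72 to 0.84. All 3 of the reverse strand of chr13:28551902-28975446, 67 kb from Sox4, were higher by 0.92 to 1.0. All 3 of chr6:11994002-11997859, overlapping Phf14 on its strand, were lower by 0.59 to 0.63. On 3 overlapping reverse intervals beside Jmy, 2 probes each were lower by 0.63 to 0.90.

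Among the rises, A_30_P01024282 in chr13:19611679-19620954 was detected in all 4 agonist cultures and in no inhibitor culture. It was at least 1.74-fold higher (adjusted p = 0.0470 with the block and 0.0567 with it under quantile normalization). This is a lower bound and gives the probe no rank among the rises. It entered the test only through the agonist groups. A_30_P01030879 in chrX:6982891-7008528, which holds 2010204K13Rik, was detected on all 12 arrays. It read -2.13, -1.68, -2.39 and -2.07 with agonist and -3.45, -3.12, -4.49 and -3.94 without, a difference of 1.68 ± 0.10 log2 (adjusted p = 0.0236 with and 0.094 without the block). In the embryo it read -1.35 in cortex, -0.40 in hippocampus, -3.14 in ventral telencephalon and -4.26 in midbrain. Among falls, A_30_P01031115 in chr17:27012442-27024356 (37 kb from Nkx2-5) was detected in all 4 inhibitor and no agonist culture and was at least 1.74-fold lower (adjusted p = 0.0366 with the block). It entered the test only through the inhibitor groups.

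Of the 86 interval probes higher with agonist, 49 had a higher level in hippocampus than in cortex of the embryo, and of the 52 lower ones 16. Of all 8543 interval probes tested 30.2% had hippocampus above cortex, and of all 36427 probes tested 41.5%. Of all probes called, 66.5% of those higher and 43.8% of those lower had it. For earlier agonist the counts were 7 of 9 and 6 of 7, beside 81.6% and 54.8% of all probes called. Of the 138, 105 (76.1%) lay within 50 kb of a protein-coding gene's probe and 91 (65.9%) on its strand, beside 72.1% and 54.0% of the interval probes tested. The hippocampus and cortex values are those of 1 array each, and these counts were not tested.

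Of the 5 interval probes with the highest mean signal over the 12 arrays, 4 are given here. The order of their brightness is not one of abundance. A_30_P01031448 in chr14:78924115-78938125 read 7.14 to 7.92, and A_30_P01026458 in chr11:22681800-22707775 read 7.18 to 7.86. A_30_P01020015 in chr17:39982023-39983277 and A_30_P01030669 in chr7:108209996-108216032 stayed between 6.59 and 7.63.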

How the data were processed

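Per the labels, Cy3-labelled cRNA of 12 samples was hybridised to single-colour arrays. Per the file headers, the authors' deposited intensity values came from version 10.7.3.1 of Agilent Feature Extraction, with background subtracted and trends within the array removed; the submitters' processing notes name version 9.1 and limma. The deposited series table holds log2 values of a like distribution on every array; the authors' steps for it are not given in the sources used here, and it served as an alternative only. Levels were log2 processed signals, less each array's 75th percentile, spots marked as outliers being dropped. Detection was the scanner software's call of signal well above background. Saturated spots numbered 0 on every array, and arrays limit the precision by their number.

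Groups were compared in limma 3.58.1 (R 4.3.3) over the 8 culture arrays, with 36427 probes tested, Benjamini-Hochberg adjustment over all of them and 2-sided tests, after the fit was tested on simulated data. Between any 2 groups, the deviations of same-numbered replicates had an r of 0.57 to 0.65 (6 pairs), and these replicates shared a slide, so the numbers pair the samples and slide was fitted as a block too. Named probes were the 6 largest rises and falls called in each fit (3 smallest p where none), the 5 largest differences per embryonic tissue, the 5 brightest and up to 2 beside each anchor gene; intervals with all probes alike and with several calls were chosen after their values were seen. The members, lists and rules were chosen with earlier results of these data known. Files of the cultures lack the mean spot signal, so the normexp alternative used the median. No sequence of chromosome 18 is shown. Some named probes and genes are not reported here.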

Additional observations from a re-analysis of the deposited data

How the results depend on the processing

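Without slide as a block, no comparison called more than 2 interval probes under any alternative. Early agonist went from 0 to 1 under median scaling and 1 under quantile normalization, late agonist and longer inhibition to 1 each under quantile normalization, and all agonist to 1 under normexp with quantile normalization and 2 under a trended prior. With the replicate block the counts were 16 (early agonist), 1 (late agonist), 1 (longer inhibition), 0 (agonist timing) and 138 (all agonist). Further settings with the block, chosen after seeing the data, gave for early agonist 19 under quantile normalization, 54 under normexp, 25 with the deposited table, 142 under a trended prior and 42 among probes detected on all 8 culture arrays. For all agonist they gave 125, 295, 161, 444 and 329, for agonist timing 5 under normexp and 17 under a trended prior, and for late agonist and longer inhibition 1 each under quantile normalization and 0 under the other 4. Larger counts do not hold the same probes: of the 16 probes of early agonist 11, 9, 9, 16 and 6 were also called in the order given above, and of the 138 of all agonist 112, 108, 108, 130 and 99. Of the 12 named probes of early agonist 9 stayed called under quantile normalization, 7 under normexp and 7 with the deposited table. Leaving out 1 array gave 0 to 0 calls without the block in all 5 comparisons, and with it 0 to 6 for early agonist, 0 to 56 for all agonist and 0 to 0 for the other 3. No named probe changed direction under any alternative run. Median scaling moved the median of all tested probes from 0.07 to -0.06 for early agonist and from 0.04 to -0.11 for agonist timing.

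The median share detected over the 12 arrays was 52.6%, 75.5% by signal significant against local background and 73.0% above the 95th percentile of negative controls. Without 1 culture array it was 52.4% to 52.8%. Tissue counts at 4-fold were 97 (cortex), 131 (hippocampus), 172 (ventral telencephalon) and 118 (midbrain). At 2-fold from the deposited table they were 159, 167, 199 and 175 in the same order. The 27 and 56 probes that split embryo from culture became 17 and 34 with the local background call. Both strands passed at 23.8% of intervals when the majority of a strand's probes had to be detected, against 73.1%. The median r with the nearest gene (0.15) kept within 0.05 of itself at 100 kb and among probes detected on all 12 arrays. The planned 4-fold comparison between strands was not run, because levels of different probes are not comparable. The causes of these shifts were not tested.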
